A study of Homo sapiens with 8 samples.

Results

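The data described here are the changes in transcript level over 9 h of blocked transcription in SW480 cells carrying an shRNA against RBMS1. The members are all 20474 RefSeq transcripts listed in the authors' deposited table for these cells, of 22468 transcripts listed in this table or in that of the control cells. They comprised 18117 coding accessions (prefix NM) and 2357 non-coding accessions (prefix NR). By symbol, they gave 11481 genes with coding accessions and 1972 genes with non-coding accessions, called coding and non-coding genes below. Of these, 662 had both kinds and count in both sets.

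SW480 is an established human colorectal adenocarcinoma line, although the series description calls it a breast cancer line. Both groups used here, shRBMS1 0hr and shRBMS1 9hr, stably expressed the shRNA, and the 9 h group had been exposed to 10 µg/mL of alpha-amanitin, the death cap toxin that stops RNA polymerase II. The matching control groups, shControl 0hr and shControl 9hr, carried a control shRNA and had the same treatment. Each of the 4 groups held 2 libraries of total RNA depleted of ribosomal RNA. The labels name 1 RBMS1 clone and the series description names 2, so whether the knockdown libraries came from 1 clone or from both is not known. The labels' protocol also places RNA extraction 48 h later, without saying from when.

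Each transcript has a single value, the log2 fold change of 9 h over 0 h. The tables hold no value per library, so the spread between libraries, the depth, the level of any transcript and the degree of RBMS1 knockdown cannot be given. No difference below was tested, and a value is a description of the libraries as the authors combined them. Every value given for a transcript is from the authors' deposited tables, and a gene with several transcripts is given by their mean unless a transcript is named. The table headers state neither the base of the logarithm nor the direction. The base is that of Cuffdiff, which the submitters' processing notes name, and the direction was read from short-lived mRNAs such as MYC, which was chosen for this after its value was seen and stood at −1.38 in the authors' deposited table. A value of −1 means that the relative level at 9 h was lower by 2-fold, and values at or beyond 1 in size were counted in each direction.

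When RNA polymerase II is stopped, an mRNA that is degraded quickly loses its share of the RNA, and a stable mRNA gains share. Decay of most mRNAs begins with removal of the poly(A) tail by deadenylases such as CCR4-NOT, followed by decapping and digestion from the 5′ end by XRN1, or digestion from the 3′ end by the exosome. Proteins that bind the 3′ untranslated region (3′UTR) set the pace: Pumilio proteins and several binders of AU-rich elements speed decay, and RBMS1 is an RNA-binding protein that has been reported to bind and stabilise some mRNAs. Replication-dependent histone mRNAs carry no poly(A) tail and end in a stem-loop.

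The 3′UTR sites below, written 5′ to 3′ on the mRNA strand as DNA, are examples of features described later. They come from GENCODE release 29 transcripts on GRCh38, and all lie in 3′UTRs. Capitals mark the stem-loop in the histone mRNAs H4C2, H3C8, H2BC5 and H2AC25, and the Pumilio motif TGTANATA in PDE4B, FZR1 and CYP26A1. Capitals mark the AU-rich nonamer TTATTTATT in FUT4 and STARD13, and the pentamer ATATA, an AU-rich string of the kind reported for RBMS1, in AKAP12 and RBMS1. The mRNAs shown for the Pumilio motif and the nonamer were picked for low values in both knockdown and control cells.
H4C2, chr6:26026894-26026923, minus strand: ttccaatGGCCCTTTTCAGGGCCgcccact
H3C8, chr6:26270916-26270945, minus strand: ttaaaaaGGCTCTTTTAAGAGCCgcctact
H2BC5, chr6:26158580-26158609, plus strand: tcccaaaGGCTCTTTTAAGAGCCacgcatg
H2AC25, chr1:228457362-228457391, minus strand: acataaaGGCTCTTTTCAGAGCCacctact
PDE4B, chr1:66373649-66373676, plus strand: tattacttaaTGTATATAatgtaatgtt
FZR1, chr19:3536154-3536181, plus strand: ggcgtgcatgTGTACATAtgtatttgtg
CYP26A1, chr10:93077331-93077358, plus strand: ttattggaagTGTACATAtgagttttta
FUT4, chr11:94546684-94546712, plus strand: ttccacacaaTTATTTATTtcatgtcttt
STARD13, chr13:33104285-33104313, minus strand: tgacccaaccTTATTTATTattgtacaga
AKAP12, chr6:151355940-151355969, plus strand: acaattttcccttgataaccATATAaattc
RBMS1, chr2:160273137-160273166, minus strand: agttatttctactttagtacATATAagata

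Across the whole table, coding transcripts centred close to 0 and non-coding transcripts somewhat above it. The coding median was −0.05, with quartiles of −0.55 and 0.34. Of the coding transcripts, 2362 lay at −1 or below and 1388 at 1 or above, which is 13.0% and 7.66%. The non-coding median was 0.15, with quartiles of −0.45 and 0.67, and 287 transcripts (12.2%) lay at −1 or below while 383 (16.2%) reached 1 or more. With a gene's value taken as the mean over its transcripts, 1134 of 11481 coding genes (9.88%) lay at −1 or below and 459 (4.0%) at 1 or above. The same count for non-coding genes was 229 of 1972 (11.6%) and 304 (15.4%).

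Zero is not a fixed point on this scale, because the scaling between libraries is not described in the sources used here. The mRNAs of the cytosolic ribosomal proteins, known as long-lived, had a median of 0.38 over 84 genes. Measured from that median, the coding gene median moved from −0.07 to −0.45 and the non-coding gene median from 0.16 to −0.22. On this second scale, 22.7% of coding transcripts lay at −1 or below and 4.91% at 1 or above.

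The width of the distribution went with the number of transcripts listed for a gene. Coding transcripts of the genes with 1 listed transcript, 6891 in all, had quartiles of −0.49 and 0.24. Of these, 615 (8.92%) lay at −1 or below and 183 (2.66%) at 1 or above. Transcripts of genes with several listed transcripts, 11181 in all, lay at −1 or below in 15.6% and at 1 or above in 10.7%. For genes with 4 or more, the shares were 17.2% and 14.5%. Where a gene has several transcripts, reads of shared exons must be divided among them by estimation, and what part that played in the wider spread was not tested.

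**Figure D1:**
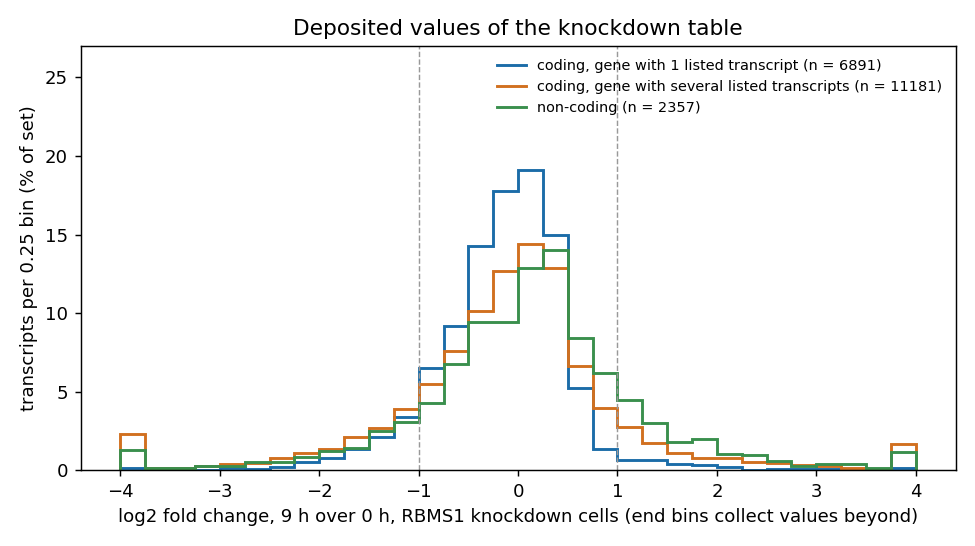
Share of transcripts (vertical axis, % of each set per bin of 0.25) by log2 fold change of 9 h over 0 h in RBMS1 knockdown cells (horizontal axis), for coding transcripts of genes with 1 listed transcript, coding transcripts of genes with several and non-coding transcripts. Dashed lines stand at −1 and 1, and the end bins collect values beyond the axis; the 1-transcript set is the narrowest, and the non-coding set has more of its transcripts at 1 or above (16.2%) than either coding set.

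The 12 mRNAs with the lowest values in both cell populations included 3 histone mRNAs. Among coding genes with 1 listed transcript in each table, the authors' deposited tables placed FZR1 at −3.81 in knockdown and −3.37 in control cells. FZR1 is an activator of the anaphase-promoting complex, which ends mitosis. PDE4B, a phosphodiesterase that breaks down cyclic AMP, stood at −4.26 and −3.003, and CYP26A1, which degrades retinoic acid, at −3.56 and −2.64. The linker histone H1-3 stood at −3.78 and −3.81, close together in both populations.

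EIF4ENIF1, a carrier of the cap-binding protein eIF4E that is also part of the decapping machinery, lay at −3.27 in knockdown and −4.58 in control cells. SPRY1, a feedback inhibitor of growth factor signalling, lay at −2.78 and −3.43, and BAMBI, a decoy receptor of the TGF-beta family, at −2.82 and −2.77. The others of the 12 lowest were TEX19, HAS2, PRR15, H1-6 and H3C12. HAS2, which makes hyaluronan, stood at −2.82 and −2.70 in the deposited tables.

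At the other end, the 12 highest mRNAs of the same kind lay between 1.85 and 6.15 in knockdown cells. CYP1A1, the detoxifying enzyme induced through the aryl hydrocarbon receptor, stood at 1.95 in knockdown and 2.34 in control cells. TAGLN, an actin-binding protein of contractile cells, stood at 1.93 and 2.70, and TNFRSF10D, a decoy receptor for the death ligand TRAIL, at 2.09 in both. GUCA1B, an activator of guanylate cyclase in photoreceptors, stood at 3.15 and 3.19, and CRYGS, a crystallin of the lens, at 1.85 and 2.32. UCN, a peptide hormone, lay at 3.02 and 1.76. IL18BP, which binds the cytokine interleukin 18, had the widest difference of the 12, at 6.15 in knockdown and 1.69 in control cells. Levels of these transcripts are not in the tables, so which of them rested on few reads is not known.

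Replication-dependent histone mRNAs were the lowest group. Their median was −1.67 over 57 genes, and 51 of the 57 lay at −1 or below, against 9.88% of all coding genes. In control cells the median was −1.69. All 5 families shared the pattern in knockdown cells. The linker histones H1 had a transcript median of −2.06 over 5 transcripts, H3 of −1.72 over 11, H4 of −1.68 over 10, H2A of −1.55 over 14 and H2B of −1.49 over 18. Families differed little beside the range inside each of them: H2A transcripts ran from −2.40 for H2AC15 to −0.67 for H2AC25.

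The stem-loop shown above was searched by its pattern in the first 150 bases of each 3′UTR of at least 20 bases. It was found in 24 of the 29 histone 3′UTRs searched, and in 1 of 17147 other coding 3′UTRs. The 24 transcripts with the pattern had a median of −1.55 and ranged from −2.31 for H4C2 to −0.67 for H2AC25. A further 29 histone transcripts have annotated models that end at the stop codon, and the pattern could not be sought in them. All 34 transcripts in which it was not found, these 29 among them, had a median of −1.72. Of the 34, 30 lay at −1 or below, against 22 of the 24 with the pattern. Since the pattern could not be sought in 29 of the 34, these values do not compare histone mRNAs with and without a stem-loop.

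H2BC5 allows a comparison within 1 gene. Its transcript that carries the stem-loop (NM_021063, with 91 bases of 3′UTR) stood at −1.51 in knockdown and −1.59 in control cells in the authors' deposited tables. Its other transcript (NM_138720, with 384 bases of 3′UTR and no match to the pattern) stood at 0.70 and 0.75. The gap between them was thus alike in both cell populations. It also places the gene mean of H2BC5, −0.41, among the 2 highest of the histone list, beside H3C6 at −0.22.

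Immediate early genes, which code for transcription factors and regulators with short-lived mRNAs, had a median of −0.60 over 39 genes. At −1 or below were 14 of the 39 (35.9%, against 9.88% of all coding genes). None lay at 1 or above, against 4.0% of all coding genes. KLF2 was lowest, at −2.38 in knockdown and −2.93 in control cells in the authors' deposited tables. FOS stood at −1.24 and −1.61 and JUN at −0.81 and −1.01, both subunits of the AP-1 factor. KLF6 had a gene mean of −2.01, from transcripts at −3.81 and −0.21. The highest members were MAFG at 0.85, from transcripts at −0.20 and 1.90, and ATF3 at 0.92, from transcripts at −0.03 and 1.87.

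The feedback inhibitors of MAP kinase signalling centred on −0.96 over 14 genes. At −1 or below were 6 of the 14 (42.9%, against 9.88% of all coding genes). The members are phosphatases that switch off ERK and related kinases, and Sprouty and Spred proteins that act upstream. In the authors' deposited tables DUSP6 stood at −2.01 in knockdown and −2.08 in control cells. DUSP9, at 0.30, was the single member above 0 and was not listed in control cells.

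Wnt feedback and intestinal stem cell genes had a median of −0.87 over 24 genes. Of these, 9 (37.5%) lay at −1 or below, against 9.88% of all coding genes. The Wnt pathway is active in most colorectal cancers. MYB, a transcription factor of progenitor cells, stood at −2.37 and AXIN2, the classical feedback inhibitor of the pathway, at −1.48, chosen after its value was seen. The median in control cells was −1.16, and 15 of 25 genes lay at −1 or below there, against 11.0% of all coding genes. The difference between the populations was not tested. EPHB2, a receptor that positions cells along the crypt, was the highest member, at 1.29, from transcripts at −0.05 and 2.62.

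The ID, HES and SMAD feedback regulators centred on −0.47 over 18 genes, and on −0.20 over the 10 genes with 1 listed transcript. At −1 or below were 5 of the 18 (27.8%, against 9.88% of all coding genes). HEY2, a target of Notch, stood at −1.75 in knockdown and −1.81 in control cells in the authors' deposited tables. SMAD7, an inhibitor of TGF-beta signalling, had a mean of 1.78 that rested on 1 transcript at 7.43, while its lowest transcript stood at −1.21. NF-kappaB inhibitors and chemokines had a median of −0.09 over 17 genes and of −0.35 over the 13 with 1 listed transcript. Of these CXCL8, a chemokine, at −1.14 was the single gene at −1 or below, and it was not listed in control cells.

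Zinc finger genes with ZNF symbols, most of them transcriptional repressors, formed the largest of the lists and lay low. Their median was −0.60 over 400 genes, and 117 (29.25%) lay at −1 or below, against 9.88% of all coding genes. Among genes with 1 listed transcript, the 124 on chromosome 19 had a median of −0.80 and the 128 elsewhere of −0.48. The other 400 transcripts of chromosome 19 had a median of 0.09. ZNF genes in clusters resemble one another in sequence, and the sources used here do not say how reads shared between them were assigned.

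Mitosis and G2/M genes lay lower than DNA replication genes. The 49 mitotic genes had a median of −0.41, with 10 at −1 or below (20.4%, against 9.88% of all coding genes). The 49 replication genes had a median of 0.03, with none at −1 or below. In control cells the medians were −0.38 and 0.05. CENPA, the centromeric histone variant, stood at −2.19 as the mean of transcripts at −3.18 and −1.20. HMMR, a spindle protein, was at the other end with 1.86, from transcripts between −0.95 and 9.24.

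p53 targets centred on −0.23 (24 genes), and 3 of them (12.5%) lay at −1 or below, near the 9.88% of all coding genes. BBC3, a promoter of apoptosis, stood at −2.36 in knockdown and −2.44 in control cells. CDKN1A, an inhibitor of cell cycle kinases, had a mean of −2.44 that rested on 1 of its 3 transcripts, at −6.90, which was not listed in control cells; its highest transcript stood at −0.05. In the unfolded protein and integrated stress response list, the median was −0.10 over 36 genes, and 7 (19.4%) lay at −1 or below. TRIB3 (mean −3.82, lowest transcript −8.58) and ASNS (mean −2.27, lowest transcript −9.83) again had their lowest transcript in the knockdown table alone. The same list held CRELD2 at 3.10.

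Components of the transcription machinery that alpha-amanitin stops stood on both sides of 0. Above it were 10 of 13 RNA polymerase II subunit genes, and below it 16 of 26 pause release factors. Of all 11481 coding genes, 5138 lay above 0 and 6343 below, so the count of pause release factors is near that of all genes. At −1 or below were 2 of the 26 (7.69%, against 9.88% of all coding genes). RNA polymerase II subunit genes had a median of 0.34 over 13 genes, which is −0.03 when measured from the ribosomal protein mRNAs. POLR2A, the large subunit to which alpha-amanitin binds, stood at 1.01 in knockdown cells and −0.63 in control cells in the authors' deposited tables, with 1 listed transcript in each. POLR2B, the second largest subunit, had a mean of −2.48 owing to a transcript at −8.27, while its highest transcript stood at 0.91. The pause release factors, which control the step from initiation to elongation, had a median of −0.25 over 26 genes, and of −0.026 over the 16 with 1 listed transcript. HEXIM1, which holds the elongation kinase P-TEFb inactive, stood at 0.42 in knockdown and 0.72 in control cells. CCNT1, the cyclin of P-TEFb, stood at −1.22.

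Genes of the decay machinery centred near 0. CCR4-NOT and other deadenylation factors had a median of −0.05 over 24 genes, decapping factors and XRN1 0.05 over 21 (−0.32 from the ribosomal protein mRNAs), the RNA exosome and cofactors −0.12 over 26, and nonsense-mediated decay factors 0.01 over 21 (−0.36 from the same reference). Single members stood far from these medians. In the authors' deposited tables BTG1, an adaptor that recruits deadenylases, stood at −1.72 in knockdown and −1.09 in control cells. ZCCHC8, a subunit of the nuclear exosome targeting complex, stood at −1.39 in both. PNRC2, a factor of nonsense-mediated decay and decapping, stood at −1.44 and −1.29, and SMG9, another factor of that pathway, at −1.30 and −1.50. TOB1, an anti-proliferative adaptor, stood at 1.92 in knockdown cells, and DCP2, the decapping enzyme, held a transcript at −0.65 and another at 9.28.

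AU-rich element binding proteins had a median of −0.19 over 22 genes in knockdown cells and of −0.61 in control cells. In knockdown cells 1 lay at −1 or below (4.55%, against 9.88% of all coding genes). In control cells 6 did, against 11.0% of all coding genes there. HNRNPDL, the lowest, stood at −1.38 as the mean of transcripts at −1.98 and −0.77. MEX3A, an RNA-binding protein of intestinal stem cells, stood at −0.96 in knockdown and −0.67 in control cells in the authors' deposited tables. The difference between the 2 medians was not tested.

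The RBMS genes themselves were listed with few transcripts. In the authors' deposited tables RBMS1 had a transcript at −0.35 in knockdown and 0.09 in control cells (NM_002897) and another at −1.38 and −0.37 (NM_016836). The shRNA acts on RBMS1 mRNA at both times, so its effect on the level cannot be read from these ratios. RBMS2, a paralogue, stood at 0.19 in knockdown and −0.19 in control cells. AKAP12, a scaffold of protein kinase A and a reported RBMS1 target, stood at −0.27 in knockdown and 0.65 in control cells, with 1 listed transcript. SDCBP, another reported target, had a mean of −0.03 over 3 transcripts. Apart from the second RBMS1 transcript, the values given here lay within 1 of 0 in both populations.

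The housekeeping groups had medians above 0, a sign that depends on the reference. The respiratory chain and ATP synthase genes had a median of 0.40 over 79 genes and 0.03 when measured from the ribosomal protein mRNAs. Glycolytic enzymes had a median of 0.35 over 18 genes, and −0.02 from that reference; CCT chaperonin subunits, which fold actin and tubulin, had 0.32 over 9 genes and −0.06. Proteasome subunits had 0.21 over 48 genes and −0.17, and mitochondrial ribosomal proteins 0.13 over 82 genes and −0.25. Below 0 were 26 of the 82 mitochondrial ribosomal protein genes, 11 of the 48 proteasome genes and 10 of the 84 cytosolic ribosomal protein genes. Of all 11481 coding genes, 6343 were below 0. Among the 84 cytosolic ribosomal protein genes none lay beyond 1 in either direction, against 13.9% of all coding genes. Their range ran from −0.88 for RPL21 to 0.84 for RPS20. Ribosomal protein genes have many processed copies in the genome, so single values such as that of RPL21 are uncertain.

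Members at the ends of these groups mostly came from a single transcript. MRPL58, a mitochondrial ribosomal protein, had a mean of 4.82 from transcripts at −0.004 and 9.65, and NDUFB9, a subunit of complex I, one of 2.94 from transcripts between −0.004 and 8.40. PKM, the last enzyme of glycolysis, had 7 transcripts from −1.47 to 9.43. Keeping only genes with 1 listed transcript moved no median of the 46 lists out of its binomial bounds, but these are wide for short lists.

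The medians of 6 other lists lay between 0.02 and 0.18. Translation factors had a median of 0.18 over 60 genes (−0.19 from the ribosomal protein mRNAs), a list that by its symbols also takes in EIF4ENIF1. Aminoacyl-tRNA synthetases had 0.02 over 38 genes (−0.35), heat shock proteins 0.08 over 26 (−0.30), sterol and fatty acid synthesis 0.08 over 32 (−0.30), interferon response genes 0.14 over 31 (−0.24) and selenoproteins 0.16 over 19 (−0.21). With 1 listed transcript, the medians were 0.20 over 17 heat shock genes and 0.30 over 12 selenoproteins, and with the median over transcripts it was 0.24 for interferon response genes. In the authors' deposited tables GPX2, a selenium-dependent peroxidase of the gut, stood at −0.62 in knockdown and 0.23 in control cells. IFIT3, an interferon-induced antiviral protein, had transcripts at −4.08 and −1.11.

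Mesenchymal and motility genes had a median of 0.39 over 24 genes in knockdown cells, 0.20 in control cells, and 0.01 in knockdown cells when measured from the ribosomal protein mRNAs. SNAI1, a repressor of epithelial genes, stood at 1.10 in knockdown and 0.57 in control cells, and TGFB2, a TGF-beta ligand, at −1.86. Of 13 defining markers of colon epithelium, 8 were listed in control cells and 6 in knockdown cells: EPCAM, KRT8, KRT18, KRT19, CDX2 and CDH1. CDX2, the intestinal transcription factor, stood at −2.01 in knockdown and −2.06 in control cells, and the adhesion molecule EPCAM at 0.46 and 0.40. None of the 6 fibroblast, 3 endothelial or 6 blood and liver defining markers was listed, and 1 of 8 immune markers was, CD14, at −3.47 and in knockdown cells alone. A wider list of 26 markers of these cell types had 4 members listed in knockdown cells and 3 in control cells. The others were LYZ at −0.06, ACTA2 at 0.33 and CD68 at 0.49. A listing shows that a ratio was given, not how high the level was. In RNA pooled from many cells, fewer cells of a type and less RNA per cell cannot be told apart.

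**Figure D2:**
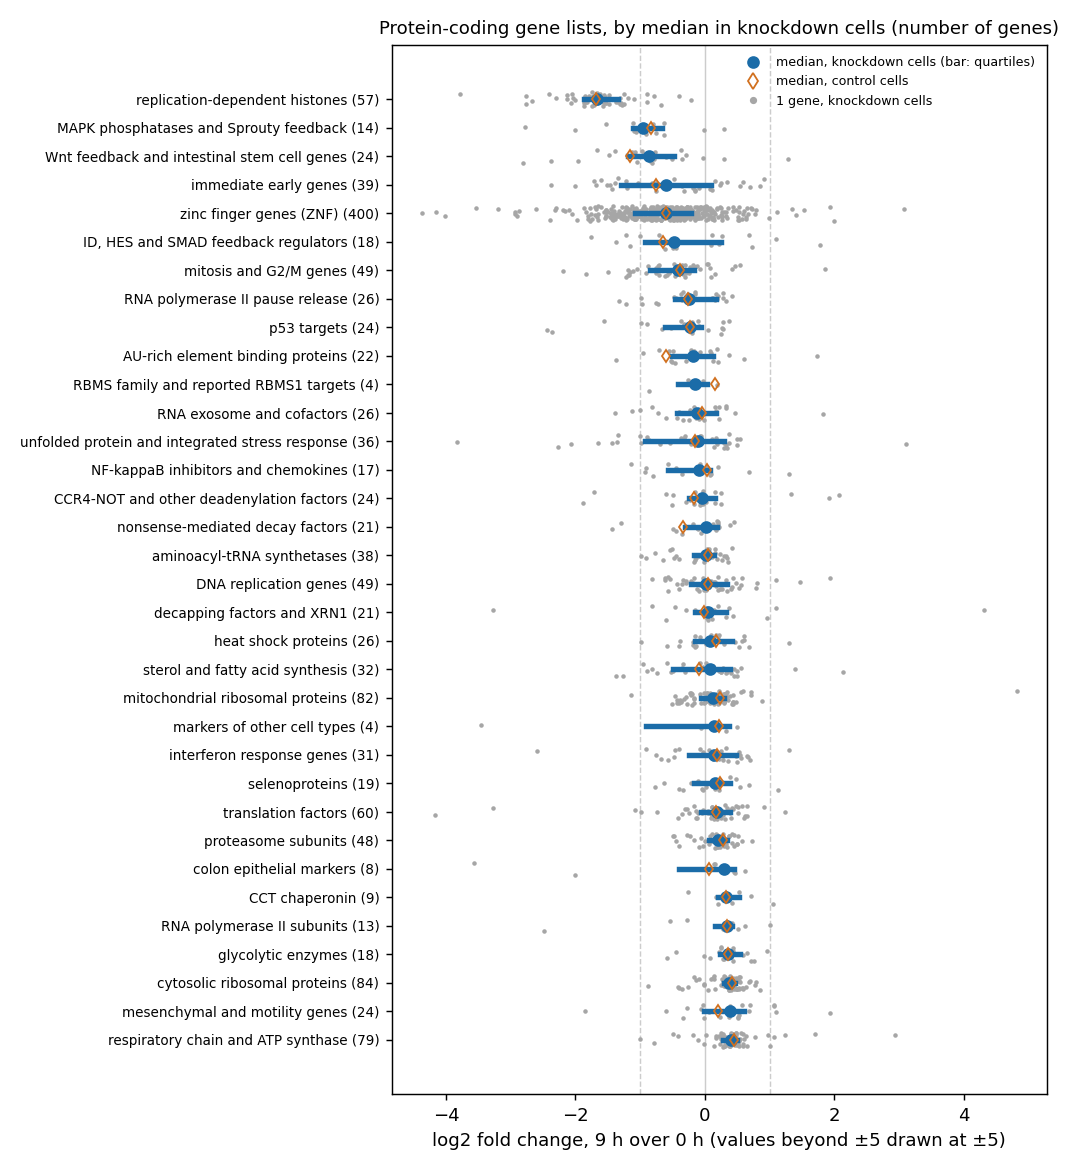
Log2 fold change of 9 h over 0 h (horizontal axis) of each gene (grey points) in 34 lists of protein-coding genes, ordered by the median in RBMS1 knockdown cells (filled circle, with a bar from the first to the third quartile) beside the median in control cells (open diamond). The histone list stands lowest with a median of −1.67, the feedback regulators follow, and the respiratory chain list stands highest at 0.40.

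Values also differed with the length and composition of coding transcripts. Among genes with 1 listed transcript, the median went from 0.14 in the quintile with the shortest coding regions to −0.18 in the quintile with the longest. For 3′UTR length it went from 0.17 to −0.18, and for 3′UTR A+T content from 0.05 to −0.15. In control cells these medians went the same way. The share at −1 or below was no higher in the longest quintile than in the shortest. It was 7.77% in the shortest and 5.89% in the longest for coding regions, and 7.32% and 6.65% for 3′UTRs. It was highest in between, at 9.82% and 10.2%. The share at 1 or above fell from 4.68% to 1.36% with coding length and from 5.58% to 0.76% with 3′UTR length. The 252 transcripts with a single exon had a median of −0.63, and the 6473 with more exons −0.07. Without the replication-dependent histones, 197 single-exon transcripts had a median of −0.36.

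The Pumilio motif TGTANATA was present in 23.7% of the 17176 coding 3′UTRs of at least 20 bases, on the mRNA strand. Among genes with 1 listed transcript, the median was −0.02 for 4816 transcripts without the motif, −0.22 for 1170 with 1 copy, −0.31 for 635 with 2 or more and −0.51 for 37 with 5 or more. In control cells the order was the same, with medians of −0.03, −0.26, −0.37 and −0.53. The 3′UTRs with copies are longer, with a median length of 765 bases without the motif and 2447 bases with it. Within each quintile of 3′UTR length the transcripts with the motif still had the lower median, by −0.39 in the shortest quintile and by −0.10 in the longest.

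The AU-rich nonamer TTATTTATT was present in 7.11% of 3′UTRs on the same strand. The median was −0.24 with it and −0.07 without it among genes with 1 listed transcript, and within the quintiles of length the difference ranged from −0.20 to −0.01. With 3 or more copies (43 transcripts) the median was −0.13, and with 5 or more (10 transcripts) −0.04. At −1 or below were 8.68% with the nonamer and 8.39% without it. The shortest quintile held only 11 transcripts with the nonamer, since 3′UTRs that hold it are longer, with a median of 2940 bases against 976. FUT4, a fucosyltransferase whose site is shown above, stood at −2.07 in knockdown and −1.81 in control cells in the authors' deposited tables, and STARD13 at −1.86 and −2.74. Both were picked for low values in both populations.

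The pentamer ATATA was present in 53.1% of 3′UTRs on the mRNA strand, and it can lie within the Pumilio motif, as in the PDE4B site shown above. The median was −0.17 with it and 0.04 without it among genes with 1 listed transcript. In the 3 quintiles with shorter 3′UTRs the difference lay between −0.23 and −0.11, and in the 2 longest quintiles it was −0.0007 and −0.006. AKAP12 has 2 copies in a 3′UTR of 1059 bases, and the RBMS1 transcript shown has 1 in 2621 bases.

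**Figure D3:**
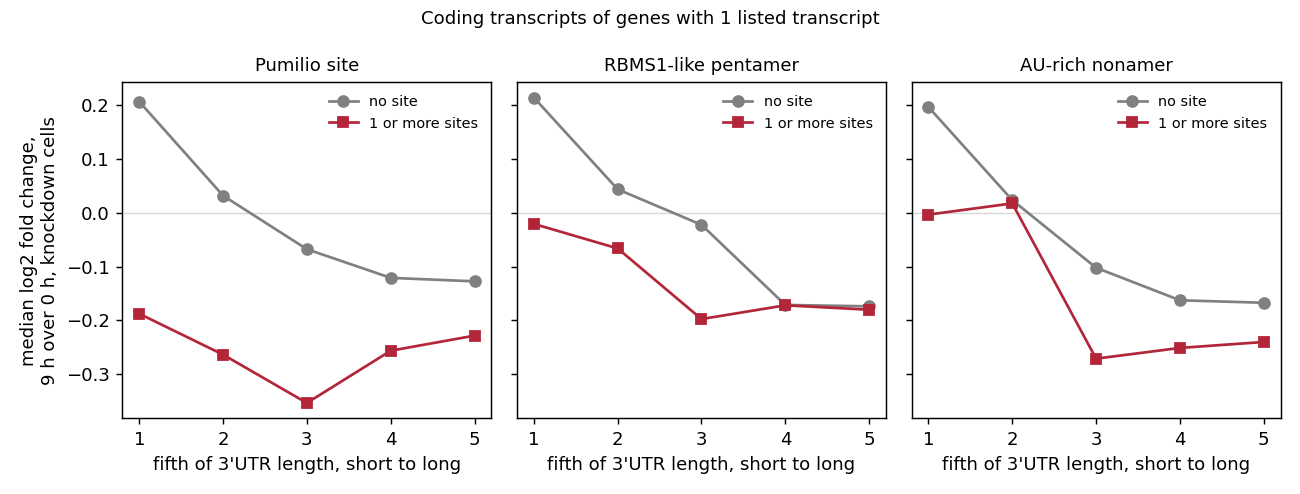
Median log2 fold change of 9 h over 0 h in RBMS1 knockdown cells (vertical axis) by quintile of 3′UTR length (horizontal axis) for transcripts with and without the Pumilio motif, the pentamer ATATA and the AU-rich nonamer, over genes with 1 listed transcript. With the Pumilio motif the median was lower in all 5 quintiles (by −0.39 to −0.10), while for ATATA the lines meet in the 2 longest quintiles.

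The motifs were also counted in the mRNAs that stood low in both populations. Of 6069 genes with 1 listed transcript in each table and a 3′UTR, 320 lay at −1 or below in both, and 35.9% of these held the Pumilio motif, against 27.5% of the 6069. For the AU-rich nonamer the shares were 10.6% and 8.83%. Of the 49 at 1 or above in both, 4.08% held the Pumilio motif, and their median 3′UTR length was 460 bases against 1107 for the 6069. A match is a string of letters in an annotated 3′UTR, not a measured binding site.

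Transcripts of the same gene often had different values. Of 4252 genes with several coding transcripts, 2196 (51.6%) had a gap of at least 1 between the lowest and the highest, and 1144 (26.9%) of at least 2. Where both transcripts were also listed in control cells, 1104 of 1763 genes with a gap of at least 1 (62.6%) had the same order there. The share was 54.7% for gaps under 0.5, 61.6% from 0.5 to 1, 64.9% from 1 to 2, 61.7% from 2 to 4 and 57.3% above that. It was thus highest in the middle of the range.

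In each of the 6 genes with the widest gap in both tables, at least 1 of the paired transcripts lay beyond 7 in size. In the authors' deposited tables DCP2 had transcripts at −0.65 and 9.28 in knockdown cells, and at −0.41 and 9.15 in control cells. ARMC9, a ciliary protein, had −1.08 and 8.61, and −1.24 and 8.23 in control cells. RIF1, a regulator of replication timing and DNA repair, had −1.66 and 9.23, and −5.33 and 7.40 in control cells. CNOT8, a deadenylase of the CCR4-NOT complex, EXTL2 and PDZD4 completed the 6.

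The 12 most extreme coding transcripts of the knockdown table all belonged to genes with several listed transcripts. At the low end, WDR72 had a transcript at −9.98 in the authors' deposited tables that stood at 1.501 in control cells. At the high end, a transcript of SHTN1 at 9.96 and a transcript of RAN, the GTPase of nuclear transport, at 9.85 were not listed in control cells. ZBTB22, with −9.89 and −8.67, was the single gene of the 12 beyond 5 in the same direction in both. No value in the knockdown table exceeded 10 in size and none was exactly 0. Among transcripts listed in knockdown cells alone, 879 were coding, and 28.8% of these lay at −1 or below and 32.5% at 1 or above.

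Non-coding accessions of genes that also have coding transcripts gave no common shift. In 662 such genes the non-coding transcript stood lower by at least 1 in 144 and higher by at least 1 in 156, with a median difference of 0.07. In both tables, 55 of 596 genes had it lower and 50 higher by at least 1.

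Small nucleolar RNAs, which guide modification of ribosomal RNA and are processed from introns, lay above 0 unless measured from the ribosomal protein mRNAs. C/D box snoRNAs had a median of 0.36 over 128 genes (−0.02 from that reference) and H/ACA snoRNAs 0.26 over 94 (−0.12). Cajal body RNAs, which guide modification of spliceosomal RNAs, had 0.54 over 23 (0.17). SNORD43 stood at 2.97 in knockdown and 2.18 in control cells in the authors' deposited tables, and SNORD63 at 3.12 and 1.34. SNORD19B, at −2.69 and −0.89, was the lowest. These rows lie within host genes, and the sources used here do not say how reads were divided between them and the hosts.

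The spliced host transcripts of snoRNAs centred on −0.09 (26 genes), and 5 of them (19.2%) lay at −1 or below, against 11.6% of all non-coding genes. Over the 14 host genes with 1 listed transcript the median was −0.24. SNHG3, the lowest, had transcripts at −2.39 and −0.51. EPB41L4A-AS1 stood at −1.15 in both populations in the authors' deposited tables, and SNHG9 at 0.81 in knockdown and 1.91 in control cells.

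RNA polymerase III makes a group of RNAs and is far less sensitive to alpha-amanitin than RNA polymerase II. The 13 listed had a median of 0.41, or 0.04 from the ribosomal protein mRNAs. Above 0 lay 11 of the 13, against 1163 of all 1972 non-coding genes. RN7SK, the RNA that holds P-TEFb inactive with HEXIM1, stood at 0.58 in knockdown and 0.66 in control cells in the authors' deposited tables, chosen after its value was seen. RNY5, a Y RNA, stood at 1.52 and 1.54, while the vault RNA VTRNA1-1 stood at −0.16 and 0.05.

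The spliceosomal snRNAs fell into separate ranges. Of 19 listed, 7 lay at −1 or below (36.8%, against 11.6% of all non-coding genes). All 7 were RNVU1 genes, variant copies of U1 on chromosome 1. RNVU1-6 stood at −5.83 in knockdown and −4.11 in control cells, RNVU1-8 at −3.44 and −5.61, and RNVU1-15 at −2.51 and −2.65 in the authors' deposited tables. RNVU1-7, another copy, stood at 1.04 and −0.11. The 12 others lay between −0.70 for RNU11, an RNA of the minor spliceosome, and 1.04 for RNVU1-7. These copies are nearly identical in sequence, so their values are uncertain.

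Long non-coding RNAs spread widely and towards higher values than coding genes. Long intergenic RNAs (LINC symbols) had a median of 0.41 over 143 genes in knockdown cells and 0.20 in control cells, and 40 lay at 1 or above against 15.4% of all non-coding genes; from the ribosomal protein mRNAs the knockdown median was 0.03. Over the 107 LINC genes with transcripts listed in both tables the knockdown median was 0.17. Antisense RNAs had 0.21 over 285 genes (−0.17), with 58 (20.4%) at 1 or above, and divergent transcripts 0.16 over 89 (−0.21), with 8 (8.99%). In the authors' deposited tables DNMBP-AS1 stood at 2.28 in knockdown and 2.71 in control cells, and CSE1L-DT at 2.17 and 2.24. The sources used here do not say whether reads were counted by strand, so an antisense RNA cannot be told apart from its partner gene.

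Among well-known lncRNAs the median was 0.01 over 21 genes, or −0.36 from the ribosomal protein mRNAs. MALAT1, the abundant nuclear RNA of speckles, stood at 0.02 in knockdown and −0.20 in control cells, and NEAT1, the scaffold of paraspeckles, at 0.29 and −0.66; both were chosen after their values were seen. MIR17HG, the host of a microRNA cluster, had transcripts at −1.26 and −0.91. TUG1 had a mean of −2.66 that rested on a transcript at −9.18, while another stood at 0.70.

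MicroRNA loci, the hairpin precursors, had a median of 0.39 over 49 genes in knockdown cells, or 0.01 from the ribosomal protein mRNAs. Of the 49, 13 lay at 1 or above (26.5%, against 15.4% of all non-coding genes) and 6 at −1 or below (12.2%, against 11.6%). Control cells did not show the higher share at 1 or above. There 6 of 43 loci reached it, against 290 of all 2073 non-coding genes, and the median was 0.39. Only 24 loci were listed in both tables. Over the 24 microRNA transcripts in both, the median absolute difference was 0.93, against 0.41 for all non-coding transcripts in both. MIR4787 stood at −2.65 in knockdown and −2.01 in control cells, and MIR6758 at 1.96 and 0.43, in the authors' deposited tables. A locus shares its sequence with the longer transcript it lies in, so the mature microRNA was not measured here.

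**Figure D4:**
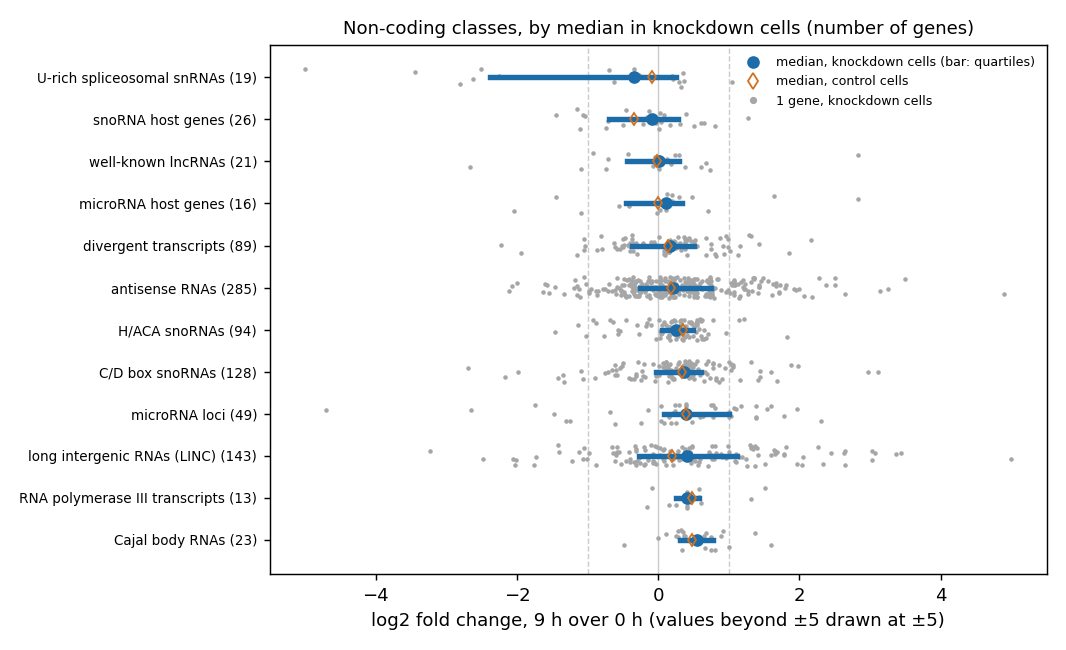
Log2 fold change of 9 h over 0 h (horizontal axis) of each gene (grey points) in 12 classes of non-coding RNA, ordered by the median in RBMS1 knockdown cells (filled circle, with a bar from the first to the third quartile) beside the median in control cells (open diamond). Cajal body RNAs stand highest at 0.54, and the spliceosomal snRNAs spread down to −5.83 (drawn at the limit of −5).

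The values of knockdown cells and control cells were set side by side last, since their libraries are separate. Over 6273 coding transcripts of genes with 1 listed transcript in each table, Pearson's r was 0.75 and Spearman's rank correlation 0.81, as a description across transcripts that share the libraries and the authors' scaling and are not independent. The median absolute difference was 0.148, and 84.1% had the same sign, against 74.97% of all 17238 coding transcripts in both tables and 69.7% of those of genes with several. Of 536 at −1 or below in knockdown cells, 361 (67.4%) were at −1 or below in control cells too, and 97.9% were below 0. Of 106 at 1 or above, 55 (51.9%) were so in control cells.

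Genes with several listed transcripts gave a looser relation. Over 10925 coding transcripts Spearman's rank correlation was 0.41, the median absolute difference was 0.407, and of 1570 at −1 or below 41.5% were so in control cells. Non-coding transcripts with 1 listed transcript in each table, 1013 in all, had a rank correlation of 0.57 and a median absolute difference of 0.289. Values of single transcripts of multi-transcript genes were thus the least repeated between the populations, and the single-transcript mRNAs the most.

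**Figure D5:**
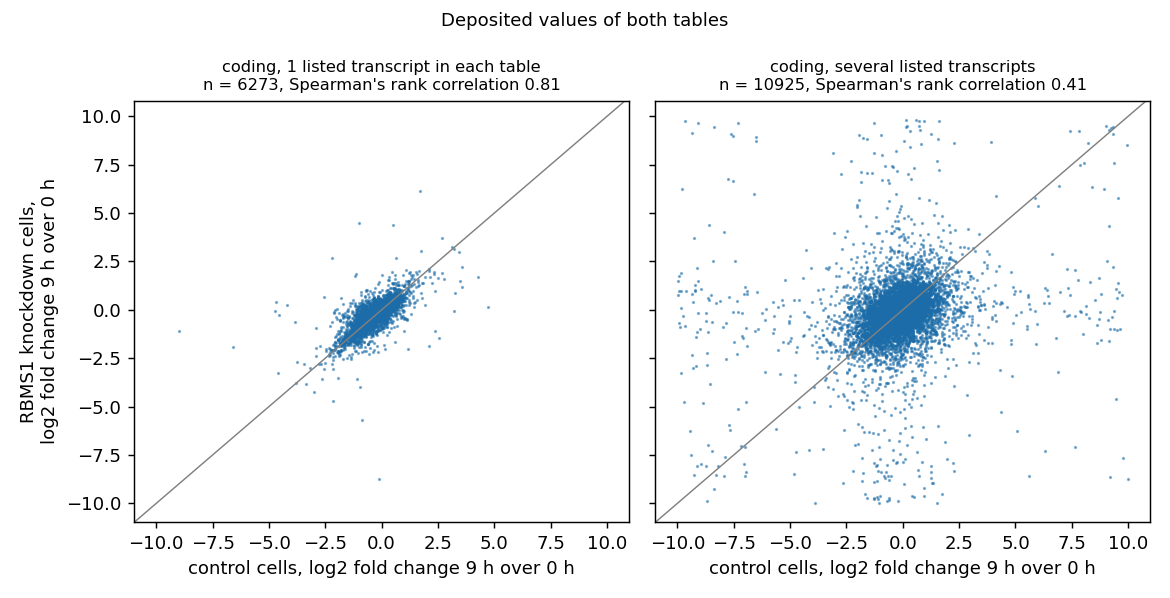
Log2 fold change of 9 h over 0 h in RBMS1 knockdown cells (vertical axis) against control cells (horizontal axis) for coding transcripts, 1 point per transcript, with the line of equality. Genes with 1 listed transcript in each table (left, 6273 points) follow the line, and transcripts of genes with several (right, 10925 points) add arms along both axes, where a value beyond 5 in one population meets a value near 0 in the other.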

How the data were processed

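Total RNA was depleted of ribosomal RNA with Ribo-Zero Gold, made into libraries with a ScriptSeq kit and sequenced on a HiSeq instrument, per the labels' protocols. The submitters' processing notes list STAR 2.5, Cufflinks, Cuffdiff and hg38 and give no roles. Per the file headers, the 2 deposited tables pair RefSeq accessions with log fold changes, and these were taken as log2 values. The deposited tables hold no counts, p-values or library columns, so the depth per sample is unknown and no test was possible. The labels do not say whether the 2 libraries of each group were grown as separate cultures.

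Accessions were matched to symbols by the RefSeq gene table (GRCh38.p14) for 20193 of 20474 transcripts and by GENCODE release 29 for 181, and 100 had no symbol. Transcript values were averaged per gene within each table. GENCODE coding regions and 3′UTRs were found for 17542 of 18117 coding transcripts, and 3′UTRs of at least 20 bases were used. Lists numbered 46, of which 34 were coding. Some genes belong to several lists. The members and the lists were chosen with earlier results of these data known.

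Genes named were RBMS1, RBMS2, AKAP12, POLR2A, FOS, JUN and HEXIM1, then genes with 1 listed transcript in each table. These were the 12 coding and 8 non-coding genes lowest by the higher of both values, and as many highest by the lower. To them came the 2 lowest and 2 highest of each list, the 6 genes with the widest transcript gap in both tables and the 6 lowest and 6 highest coding transcripts. Other names were chosen after their values were seen. Python 3.11.15 with pandas 2.3.3, numpy 2.4.6, scipy 1.17.1 and matplotlib 3.10.9 was used, and the counting was tested on simulated data.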

Additional observations from a re-analysis of the deposited data

How the results depend on the processing

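No paired analysis was possible because the deposited tables hold 1 value per transcript and no library columns, and for the same reason no library was left out. Read from the ribosomal protein mRNAs, 22.7% of coding transcripts lay at −1 or below and 4.91% at 1 or above (median −0.43), and 19.01% and 10.3% of non-coding transcripts, whose median turned to −0.22. Read as natural logs, the shares were 20.4% and 11.7% for coding (median −0.078) and 17.6% and 24.2% for non-coding transcripts (median 0.22). At a size of 1.5 they were 6.89% and 4.37%, and 6.62% and 8.74%. With transcripts listed in both tables, they were 12.2% and 6.39% for coding transcripts, and 13.2% of non-coding ones lay at 1 or above. With genes of 1 listed transcript, they were 8.92% and 2.66% (median −0.089), and 7.35% of non-coding transcripts lay at −1 or below (median 0.23). Without the outer 1%, they were 12.2% and 6.81% for coding transcripts. By the transcript of smallest size, 7.11% of coding genes lay at −1 or below and 2.33% at 1 or above, and by the median over transcripts 3.37% lay at 1 or above. Gaps of 2 were found in 26.9% of genes with several coding transcripts, and signs were the same in 74.97% of coding transcripts in both tables and in 84.1% of those of genes with 1 listed transcript. From the ribosomal protein mRNAs, 22 of the 29 list medians above 0 turned below 0, 9 of them with binomial bounds that exclude 0 as first measured: mitochondrial ribosomal proteins (−0.25), glycolytic enzymes (−0.024), proteasome subunits (−0.17), translation factors (−0.19), CCT chaperonin (−0.056), C/D box snoRNAs (−0.017), H/ACA snoRNAs (−0.12), antisense RNAs (−0.17) and divergent transcripts (−0.21). Differences by sequence feature and motif kept their direction with genes of 1 listed transcript, and those by sequence feature also without ZNF genes, an alternative chosen after seeing the data. The depth behind every value is unknown, so low-count transcripts cannot be set apart.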
